A study of Mus musculus with 6 samples.

Results

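The genes described here build centrosomes and cilia: the mouse genes whose symbols start with Cep (centrosomal protein), Ift (intraflagellar transport) or Bbs (Bardet-Biedl syndrome) followed by a number. They were compared between young and old cochlea. Of 34395 gene entries, 63 symbols had this form. The antisense transcript Cep83os was left out by rule, which left 62 members: 40 Cep, 14 Ift and 8 Bbs genes. Of these, 60 are protein coding, 1 is the long noncoding RNA Cep112it and 1 is the antisense RNA Cep112os1. Members were chosen by symbol alone, but the gene group was selected on the old-minus-young differences in counts of these same libraries, so counts over the members are descriptions. RNA was taken from cochlear base tissue of C57BL/6J mice, and 3 libraries are labelled young and 3 old. Total RNA was used and ribosomal RNA was removed, so noncoding transcripts were read beside mRNA. C57BL/6J is an inbred strain that carries a Cdh23 allele linked to early, progressive hearing loss, which starts at the cochlear base, and both groups share it. The labels give no ages and no sex, and they do not say whether each library was a separate animal or a pool, so the p-values reflect the spread among these 6 libraries alone.

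Centrosomes hold a pair of centrioles, and in a non-dividing cell the older centriole can dock at the membrane and become the basal body of a cilium. Intraflagellar transport trains carry cargo along the cilium, with complex B driving transport to the tip and complex A the return, and the BBSome loads membrane proteins onto these trains. In the cochlea, each developing hair cell has a single true cilium, the kinocilium, beside its stereocilia. It takes part in orienting the hair bundle and is lost from mature cochlear hair cells, while many other cochlear cells bear a primary cilium. In humans, loss of CEP78 or CEP250 causes retinal degeneration with hearing loss.

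Gene counts summed to between 26245416 and 39433584 per library, more in each young library than in each old one. The age groups also differed in ways that touch every result below. Xist had 12613 to 18384 counts in the young and 0 to 9 in the old libraries. The Y-linked Ddx3y had 0 in each young and 868 to 1107 in each old library, so age and sex cannot be told apart. A single unnamed feature took 6.5 to 9.92% of the counts in the young and 1.27 to 1.77% in the old libraries. Long noncoding genes took 2.74 to 3.37% in the young and 4.98 to 5.25% in the old ones. Such shifts in make-up matter for scaling: edgeR's TMM factors were 0.863 to 0.963 in the young and 1.087 to 1.112 in the old libraries. In bulk tissue, fewer cells of a type and less RNA per cell cannot be told apart.

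RFX transcription factors, which drive cilium genes, bind a promoter motif called the X-box, and the members' promoters were searched for it because it is the sequence feature best known in ciliary genes. RefSeq promoters (GRCm38.p6, 250 bases before to 50 after an annotated start) matched 51 of the 62 members, with 58 windows. The X-box was sought on both strands with 0 to 3 bases between its half-sites. It was found in 4 of the 51 matched genes, all printed here 5′ to 3′ on the gene's strand, with the X-box in capitals. Cep112 lies at chr11:108425016-108425315 (plus strand), Cep41 at chr6:30693700-30693999 (minus strand), Ift57 at chr16:49699044-49699343 (plus strand) and Bbs1 at chr19:4906578-4906877 (minus strand).
Cep112: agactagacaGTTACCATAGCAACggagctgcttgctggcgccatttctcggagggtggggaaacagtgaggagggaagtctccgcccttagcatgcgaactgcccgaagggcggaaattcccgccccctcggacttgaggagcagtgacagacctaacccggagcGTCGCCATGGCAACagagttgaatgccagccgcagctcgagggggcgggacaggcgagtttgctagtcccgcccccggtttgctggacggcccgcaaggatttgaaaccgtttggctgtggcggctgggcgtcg
Cep41: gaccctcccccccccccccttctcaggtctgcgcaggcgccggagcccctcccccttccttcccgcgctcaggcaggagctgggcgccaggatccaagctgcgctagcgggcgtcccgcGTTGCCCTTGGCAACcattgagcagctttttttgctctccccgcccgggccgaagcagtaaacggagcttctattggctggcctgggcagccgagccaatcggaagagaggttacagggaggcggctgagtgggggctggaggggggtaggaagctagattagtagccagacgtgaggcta
Ift57: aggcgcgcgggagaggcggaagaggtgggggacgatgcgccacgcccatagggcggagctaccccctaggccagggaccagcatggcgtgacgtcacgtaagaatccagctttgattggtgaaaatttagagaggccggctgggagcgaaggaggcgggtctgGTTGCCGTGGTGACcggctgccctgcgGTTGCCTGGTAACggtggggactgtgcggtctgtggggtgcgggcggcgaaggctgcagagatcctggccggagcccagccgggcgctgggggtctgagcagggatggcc
Bbs1: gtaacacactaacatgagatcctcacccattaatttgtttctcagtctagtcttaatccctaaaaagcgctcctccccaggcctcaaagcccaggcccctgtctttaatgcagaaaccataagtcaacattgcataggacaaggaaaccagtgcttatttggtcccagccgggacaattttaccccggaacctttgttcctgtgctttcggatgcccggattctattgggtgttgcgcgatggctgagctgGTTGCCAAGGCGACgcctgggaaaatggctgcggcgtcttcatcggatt

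An X-box was present in 6.90% of the members' windows, in 1.53% of all 32851 promoter windows of the same length and in 1.6% of those of protein-coding genes in the count table. Its half-site GTTGCC, which also occurs inside the full motif, was in 29.3% of the members' windows and in 12.5% of all windows. By prefix it was in 45.5% of Ift windows, 37.5% of Bbs windows and 23.1% of Cep windows. The E2F-like letters TTTCCCG or TTTGGCG were in 17.2% of the members' windows and 4.84% of all. TTTGAA, the letters of the CHR element of cell-cycle genes, was in 11 of 39 Cep windows (28.2%), in 0 of 11 Ift and 0 of 8 Bbs windows, and in 17.9% of all windows. These matches describe letters in the window and do not show that a factor binds there. The 4 genes with an X-box did not move as a set: Cep112 and Cep41 were higher in the old libraries, whereas Ift57 and Bbs1 passed the test in neither direction.

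Cep genes were far more often higher than lower in the old libraries under every scaling tried. None of these scalings moved log2 fold changes clearly down relative to TMM. Ift genes were more often lower after TMM scaling, but more often higher with library totals alone, and 7 of 8 Bbs genes passed the test in neither direction. After TMM scaling, edgeR's quasi-likelihood test with Benjamini-Hochberg adjustment over 20157 genes called 20 of the 61 testable members higher and 11 lower in old than in young, with a threshold of 0.05 on the adjusted p. Over all genes, 26.9% were called higher and 27.3% lower, 54.2% in all. Among the 15312 protein-coding genes tested, 19.7% were called higher and 34.7% lower, 54.4% in all. By prefix, 19 of 39 Cep genes were higher and 3 lower, 1 of 14 Ift genes was higher and 7 lower, and 0 of 8 Bbs genes were higher and 1 lower. The median log2 fold change (old minus young) was 0.38 for Cep, -0.29 for Ift and -0.12 for Bbs, beside 0.01 for all genes and -0.13 for protein-coding genes. Of the 38 protein-coding Cep genes, 18 (47.4%) were higher and 3 lower. The old and young libraries did not overlap in CPM for 40 members, all 31 called ones included, beside 62.3% of all genes tested. Cep112os1 had 0 counts in all 6 libraries and was not tested.

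**Figure D1:**
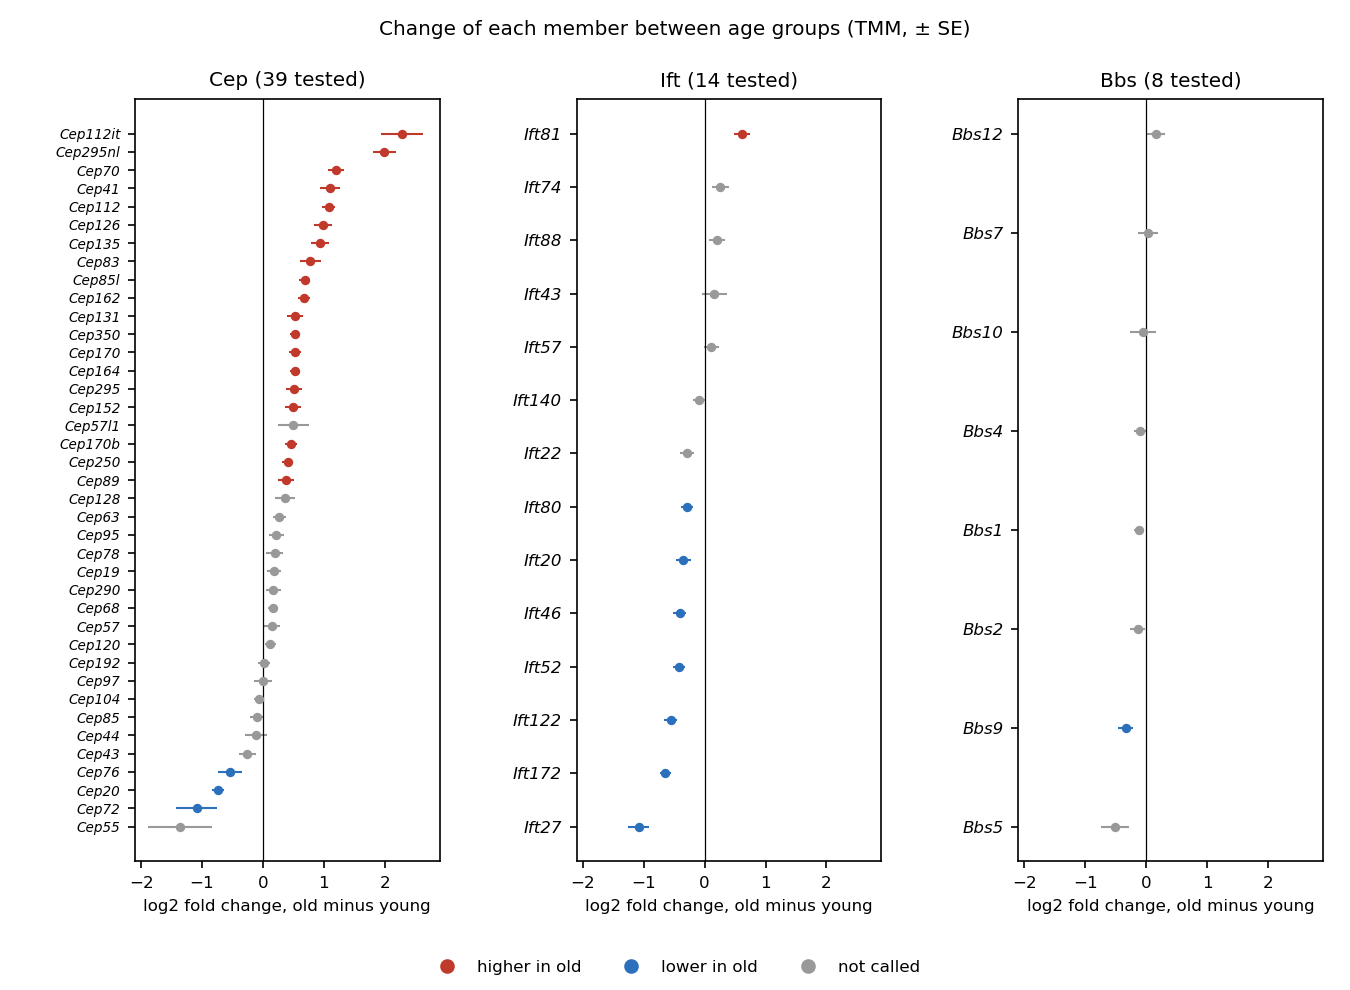
Log2 fold change (old minus young, TMM scaling) on the horizontal axis for each of the 61 tested members, split by prefix, with SE bars; red marks members called higher, blue members called lower and grey members not called at an adjusted p under 0.05. The Cep panel has 19 red and 3 blue points, the Ift panel 1 red and 7 blue, and the Bbs panel 1 blue point.

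The balance of higher and lower calls among Ift and Bbs genes turned under some scalings, which moved log2 fold changes up. That among Cep genes already lay toward higher under TMM, so such scalings could not turn it. With library totals alone the median over all genes moved up by 0.274 on the log2 scale relative to TMM, and 41% of all genes were called higher and 14.5% lower (55.5% in all). Under that scaling 30 Cep genes were higher and 1 lower, 4 Ift genes were higher and 3 lower, and 1 Bbs gene was higher and 0 lower. With TMM factors taken from protein-coding genes only, the shift was 0.133 (33.7% of all genes called higher and 20.6% lower, 54.3% in all), 25 Cep genes were higher and 2 lower, and 3 Ift genes were higher and 4 lower. On log2(FPKM + 1), tested with limma, 26 Cep genes were higher and 1 lower and 4 Ift genes were higher and 2 lower, beside 38.6% and 13.8% of all genes (52.4% in all). On log2(FPKM + 0.1) these counts were 27 and 1 for Cep and 5 and 2 for Ift, beside 39.2% and 14% of all genes (53.2% in all). All 20 members called higher stayed called higher under the 6 other scalings tried. Of the 11 called lower, 3 did (Cep20, Ift27 and Ift172), Ift122 was called lower under 4 of the 6, Cep72 and Ift52 under 3, Ift46 under 2, and Cep76, Ift20, Ift80 and Bbs9 under 1. Relative to TMM, DESeq2 size factors moved the median over all genes by -0.006, and the rest of the 6 moved it up by 0.074 to 0.281. None moved it clearly down, so these scalings could end lower calls but hardly put the higher calls to a test.

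**Figure D2:**
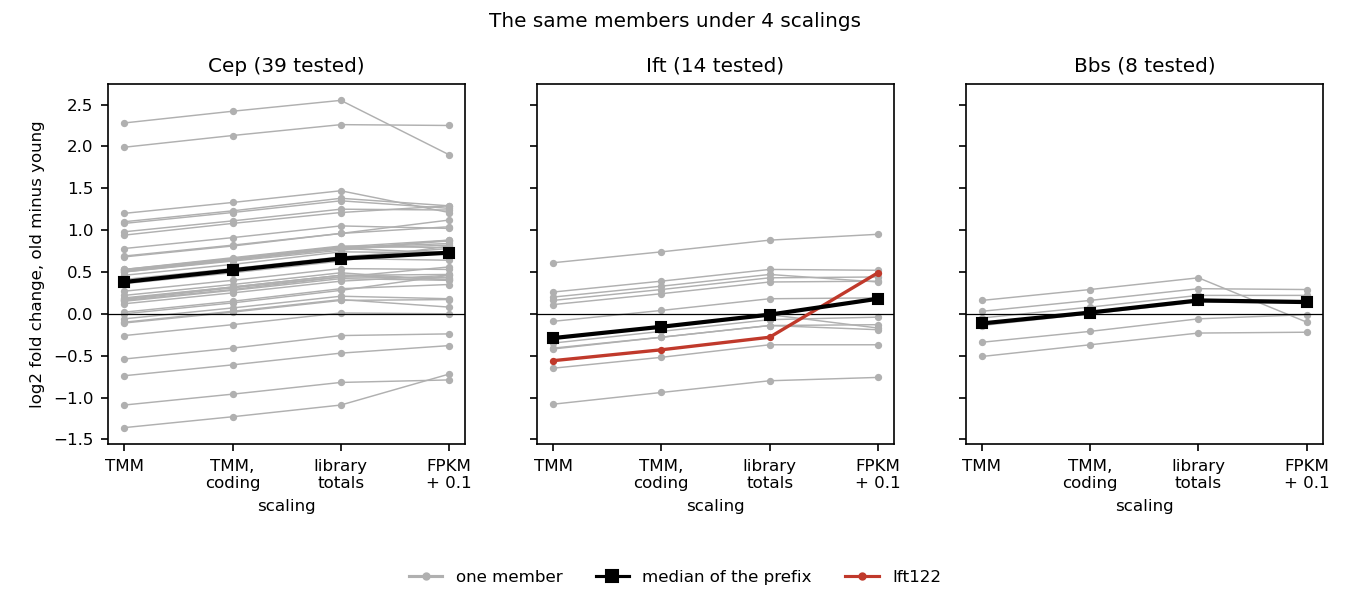
Log2 fold change of each tested member (grey lines) under TMM, TMM on protein-coding genes, library totals alone and log2(FPKM + 0.1), by prefix, with the median of the prefix in black and Ift122 in red. The Cep median stays above 0, from 0.38 under TMM to 0.66 with library totals and 0.73 with FPKM, while the Ift median is -0.29 under TMM and 0.18 with FPKM.

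Ratios within a library do not depend on how libraries are scaled. Summed Cep FPKM (fragments per transcript length and sequencing depth, as deposited) over summed Ift FPKM was 2.01, 1.76 and 1.72 in young 1, 2 and 3 and 2.57, 2.65 and 2.58 in old 1, 2 and 3. That is 1.83 ± 0.155 against 2.60 ± 0.0435 (SD, n = 3 each), so every old library lay above every young one. Without Cep112it, Cep295nl and Cep85, the ratio was 1.57, 1.43 and 1.36 against 2.11, 2.24 and 2.15. Summed Cep over summed Bbs FPKM was also higher in each old library, at 8.72, 8.05 and 8.34 against 6.56, 6.05 and 5.91 in the young. For Ift over Bbs the groups overlapped, at 3.27, 3.44 and 3.44 in the young and 3.39, 3.04 and 3.23 in the old libraries. That overlap rested on Ift122, whose FPKM and counts differ in direction between the groups. Without Ift122, a choice made after seeing the data, the ratio was 2.97, 3.17 and 3.14 in the young and 2.94, 2.75 and 2.81 in the old libraries, apart by a narrow gap, and the Cep over Ift ratio was 2.21, 1.91 and 1.88 against 2.96, 2.93 and 2.97. The summed FPKM of the Ift genes itself overlapped between groups, at 120 to 125 in the young and 121 to 132 in the old libraries, and it also overlapped without Ift122, at 110 to 115 against 107 to 115. With 3 libraries against 3, an exact two-sided permutation test cannot give a p below 0.1, and none was run on these ratios.

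Levels can be compared between genes per length of transcript. The mean FPKM over all 6 libraries ran from 2.84 to 15.6 among Ift genes (median 9.16), from 0.18 to 45 among Cep genes (median 4.12) and from 1.49 to 8.69 among Bbs genes (median 4.05). The highest Cep levels were those of Cep85 (45 FPKM), Cep170b (21.5 FPKM) and Cep85l (16.3 FPKM). Ift22, Ift52 and Ift122 led the Ift genes at 15.6, 13.7 and 12.8 FPKM, but the place of Ift122 depended on the group: at a mean of 10.5 FPKM it stood below Ift27 (14.4 FPKM), Ift20 (12.6 FPKM) and Ift172 (11.2 FPKM) in the young libraries. In the old ones it was first by its mean of 15 FPKM, but in old 2 it was at 11.47 FPKM, below Ift22 at 14.43 FPKM. The length implied by its counts and FPKM also differed between the groups, as given below under complex A. Bbs4, Bbs9 and Bbs2 led the Bbs genes at 8.69, 8.09 and 7.94 FPKM. The most abundant member did not pass the test. Cep85 was at 71.5, 59.6 and 66.5 CPM (counts scaled by TMM library size, used from here on) in young 1, 2 and 3 and at 70.9, 56.3 and 56.7 CPM in old 1, 2 and 3, with overlapping groups (log2 fold change -0.10 ± 0.11 SE, adjusted p = 0.449 by edgeR).

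The distal and subdistal appendages of the older centriole, which tether it to the membrane and hold microtubules when a cilium forms, were represented by Cep83, Cep89, Cep164, Cep128 and Cep170. Of these 5 genes, 4 were higher in the old libraries and 0 lower, beside 26.9% and 27.3% of all genes, with a median log2 fold change of 0.52. Cep164 (gene 214552, chr9:45766946-45828686), a distal appendage protein needed for membrane docking, was at 39.5, 40 and 40.1 CPM in young 1, 2 and 3 and at 58.6, 56.6 and 55.7 CPM in old 1, 2 and 3. Its young libraries were nearly equal and all lay below the old ones (log2 fold change 0.52 ± 0.08, adjusted p = 0.000344, edgeR). Cep83, which places the other distal appendage proteins, was at 11.9, 8.20 and 8.07 CPM in the young and 18, 16.5 and 14 CPM in the old libraries (0.78 ± 0.17, adjusted p = 0.00343, edgeR). Cep170, a subdistal appendage protein, was at 59.1, 53.1 and 45.9 CPM in the young and 75.9, 75.0 and 75.2 CPM in the old libraries (0.52 ± 0.10, adjusted p = 0.00146, edgeR). The call for Cep89 was the least secure of the 4. It stood at 11.1, 13.6 and 12 CPM against 13.7, 16.9 and 17.3 CPM (0.38 ± 0.13, adjusted p = 0.0323, edgeR), and leaving out old 2, old 3, young 1 or young 3 raised the adjusted p to between 0.0918 and 0.111. Cep128, another subdistal protein, was at 0.36 ± 0.16 (adjusted p = 0.0865, edgeR) and passed at 0.0363 without old 3.

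Genes that build centrioles or control their assembly were called in both directions after TMM scaling. Of the 11, 3 (27.3%) were higher (Cep135, Cep295 and Cep152), 1 (9.09%) was lower (Cep76) and 7 passed in neither direction. Their median log2 fold change was 0.15. All genes stood at 26.9% higher and 27.3% lower, so the higher share was near that of all genes. With library totals alone 8 of 11 (72.7%) were higher and 0 lower, beside 41% and 14.5% of all genes. Cep135, part of the cartwheel on which a new centriole forms, was at 6.41, 5.65 and 4.96 CPM in the young and 11.2, 9.66 and 11.9 CPM in the old libraries, well apart (0.94 ± 0.15, adjusted p = 0.000564, edgeR). Cep152, the scaffold that recruits the duplication kinase Plk4, was at 6.30, 6.29 and 6.21 CPM in the young and 8.65, 8.22 and 9.79 CPM in the old libraries (0.50 ± 0.13, adjusted p = 0.00974, edgeR). Cep192, which works upstream of Cep152, was at 17.4, 20.3 and 19.1 CPM against 19.2, 19.3 and 19.1 CPM, with overlapping groups (0.02 ± 0.10, adjusted p = 0.883, edgeR). Cep76, which limits centriole re-duplication, was at 8.52, 8.32 and 8.5 CPM in the young and 7.18, 4.09 and 6.19 CPM in the old libraries. The old libraries were spread, and old 2 was the lowest (-0.54 ± 0.19, adjusted p = 0.0375, edgeR). Without old 2 the Cep76 value was -0.34 with an adjusted p of 0.0927, and without old 3, young 2 or young 3 the adjusted p was 0.0591, 0.078 and 0.0593. Cep57, Cep57l1, Cep63, Cep44, Cep97 and Cep120 passed in neither direction, with log2 fold changes from -0.11 to 0.50.

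Of the linker proteins that hold the pair of centrioles together, Cep250 was higher and Cep68 passed in neither direction. Cep250 (C-Nap1), the fibrous core of the linker, was at 49.4, 52.0 and 45 CPM in the young and 61.6, 69.4 and 63.1 CPM in the old libraries (0.41 ± 0.09, adjusted p = 0.00315, edgeR). Cep350, Cep43 (FOP), Cep20 and Cep19 act together at the centriole in early cilium formation, and here 2 of them moved in opposite directions. Cep350 (gene 74081, chr1:155844964-155973270) was at 109, 114 and 105 CPM in the young and 166, 149 and 159 CPM in the old libraries (0.53 ± 0.08, adjusted p = 0.000313, edgeR). Cep20 was at 20.8, 20.6 and 19.9 CPM in the young and 11.5, 12.7 and 12.5 CPM in the old libraries (-0.74 ± 0.10, adjusted p = 0.000267, edgeR). Both groups were tight for Cep20, which was the only Cep gene called lower under all scalings tried. Cep19 and Cep43 were at 0.18 ± 0.11 and -0.26 ± 0.14 and did not pass.

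At the base of the cilium and in the satellites around it, 3 of 7 genes were higher (Cep41, Cep162 and Cep131), 1 was lower (Cep72) and 3 passed in neither direction. Their median log2 fold change was 0.19, and all genes stood at 26.9% higher and 27.3% lower. With library totals alone 5 of 7 were higher and 0 lower, beside 41% and 14.5% of all genes. Cep162, which helps to assemble the transition zone, was at 12.7, 13 and 13.7 CPM in the young and 21.9, 20.9 and 20.3 CPM in the old libraries (0.68 ± 0.10, adjusted p = 0.000369, edgeR). Cep290, the transition zone linker whose human form is mutated in Joubert syndrome and Leber congenital amaurosis, was at 11.1, 10.9 and 9.14 CPM against 11.7, 11.6 and 11.8 CPM. The old libraries were just above the young, but the difference did not pass (0.17 ± 0.12, adjusted p = 0.256, edgeR). Cep78, whose loss causes cone-rod dystrophy with hearing loss in humans, was at 7.20, 7.28 and 5.85 CPM against 8, 7.92 and 7.27 CPM, with groups that overlapped slightly (0.19 ± 0.14, adjusted p = 0.288, edgeR). The satellite gene Cep72 was scarce, at 1.34, 1.71 and 0.944 CPM in the young and 0.549, 0.705 and 0.623 CPM in the old libraries (-1.09 ± 0.34, adjusted p = 0.0208, edgeR). Its adjusted p rose to 0.0547 without old 1 and to 0.121 without young 2.

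**Figure D3:**
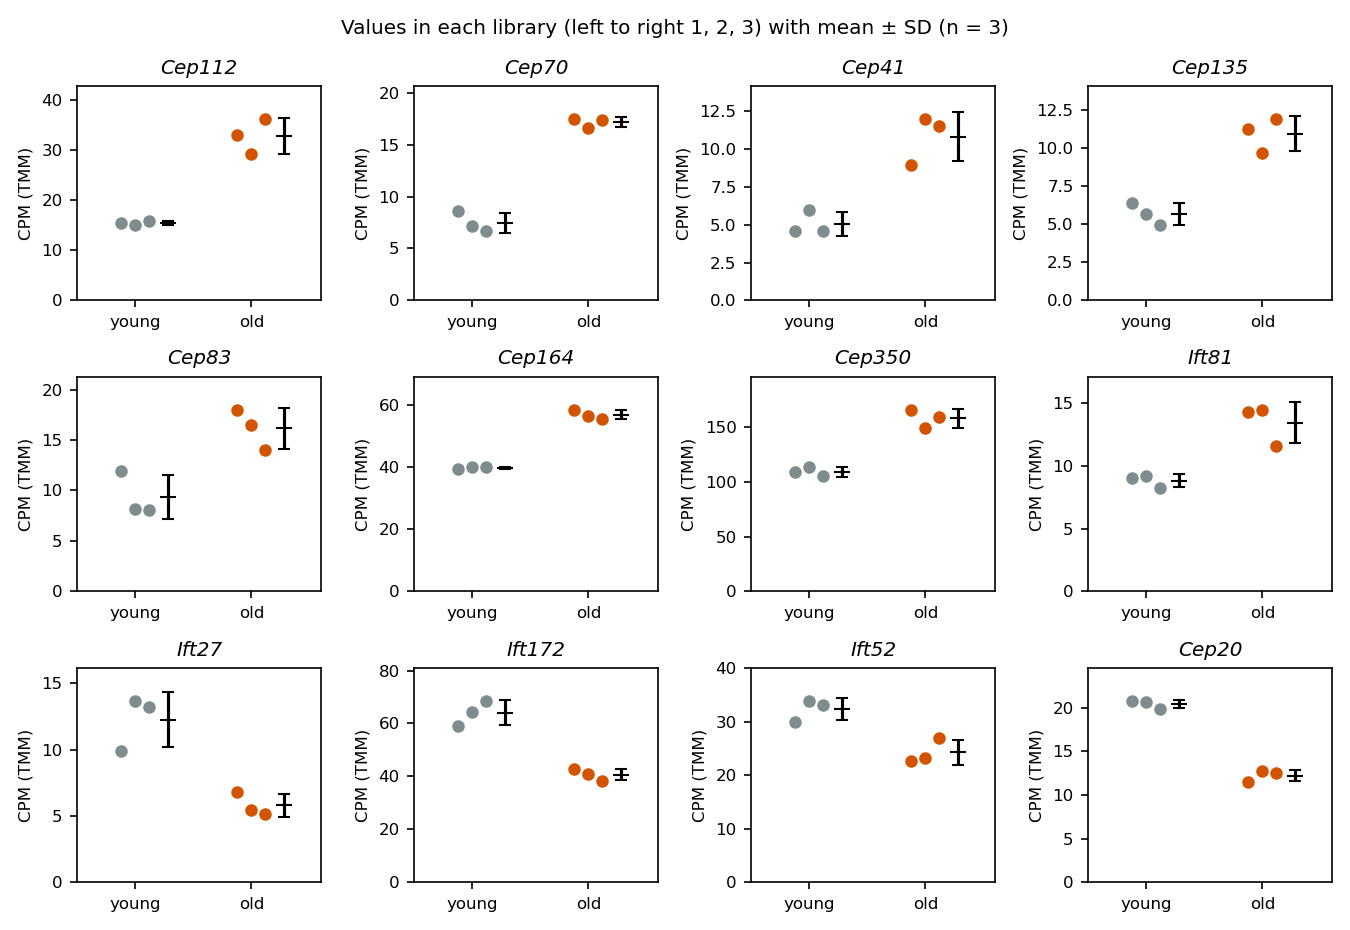
CPM (TMM-scaled) on the vertical axis, from 0, for 12 members in each library, young in grey and old in orange, with the mean ± SD (n = 3) beside the points. The old libraries sit above the young ones for Cep112, Cep70, Cep41, Cep135, Cep83, Cep164, Cep350 and Ift81, and below them for Ift27, Ift172, Ift52 and Cep20.

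The 5 members that rose by at least 2-fold were Cep112it, Cep295nl, Cep70, Cep41 and Cep112, and for each of them reads could also belong to an overlapping gene. The sources used here do not say whether the counting used strand. Cep41, which supports tubulin glutamylation in cilia, was at 4.59, 5.98 and 4.57 CPM in the young and 8.96, 12 and 11.5 CPM in the old libraries (1.1 ± 0.17, adjusted p = 0.000486, edgeR). The antisense long noncoding gene Gm13782 covers 16769 bases of its span, with a mean of 146.2 counts beside 246.5 for Cep41. Cep70 (gene 68121, chr9:99183584-99325879), a microtubule-organising protein of the centrosome, was at 8.57, 7.19 and 6.67 CPM against 17.5, 16.6 and 17.4 CPM, 2.30-fold higher (1.20 ± 0.13, adjusted p = 6.57e-05, edgeR). The span of Esyt3 on the other strand overlaps that of Cep70 by 15917 bases, but held a mean of only 50 counts beside 381.6.

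Cep112 (gene 76380, chr11:108425215-108860615) was at 15.5, 15.1 and 15.9 CPM in the young and 32.9, 29.1 and 36.2 CPM in the old libraries, 2.11-fold higher (1.08 ± 0.11, adjusted p = 4.24e-05, edgeR). Its young libraries were nearly equal. The noncoding entry LOC115487814 overlaps it by 34258 bases and held a mean of 1241.5 counts, more than the 747.8 of Cep112 itself. Cep112it, a long noncoding RNA of the same strand inside the Cep112 span, was at 0.756, 1.43 and 0.457 CPM against 3.64, 4.53 and 4.81 CPM (2.28 ± 0.35, adjusted p = 0.000475, edgeR). Cep295nl lies wholly within the span of Timp2 on the same strand, and Timp2 had a mean of 22191 counts beside 315.7. It was at 5.18, 3.79 and 3.5 CPM against 13.5, 17.5 and 18.9 CPM, 3.99-fold higher (1.99 ± 0.19, adjusted p = 3.51e-05, edgeR). Reads of Timp2 and Cep295nl cannot be separated with certainty in these tables, so the Cep295nl value is uncertain.

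The other Cep genes that rose were Cep126, Cep85l and Cep170b. Cep126, a microtubule-binding protein of the centrosome, was at 0.98 ± 0.15. Cep85l was at 37.6, 31.3 and 32.5 CPM in the young and 55.3, 54.5 and 53.7 CPM in the old libraries (0.69 ± 0.09, adjusted p = 0.000199, edgeR), with Pln on the other strand inside its span. Cep170b, a paralog of Cep170, was at 108, 104 and 125 CPM against 165, 165 and 135 CPM, with young 3 and old 3 closest to each other (0.46 ± 0.10, adjusted p = 0.00378, edgeR). Cep55, which works in the last step of cell division, was scarce, with 23, 26 and 13 counts in the young and 5, 3 and 12 in the old libraries. At 0.644, 0.731 and 0.396 CPM against 0.172, 0.101 and 0.415 CPM its groups overlapped (-1.36 ± 0.53, adjusted p = 0.0523, edgeR), and without old 3 the adjusted p was 0.0127.

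Among the Ift genes, 7 were lower after TMM scaling (Ift27, Ift172, Ift122, Ift52, Ift46, Ift20 and Ift80) and 1 was higher (Ift81). Of these, Ift122 was lower by counts alone, and its FPKM went the other way. Over all genes 27.3% were lower and 26.9% higher, and with library totals alone 14.5% and 41%. For protein-coding genes the TMM shares were 34.7% lower and 19.7% higher. The peripheral part of complex B, which binds the kinesin motor, had 3 of 4 genes lower, but 1 higher and 1 lower with library totals alone. Ift172 (gene 67661, chr5:31253279-31291391), the large peripheral subunit known from Chlamydomonas for its part in turning trains around at the tip, was at 59.2, 64.3 and 68.6 CPM in the young and 42.8, 41 and 38.4 CPM in the old libraries. The groups were wide apart (-0.65 ± 0.09, adjusted p = 0.00022, edgeR). Counts of Cep350 over counts of Ift172, a ratio free of library scaling, were 1.84, 1.78 and 1.54 in the young and 3.87, 3.64 and 4.13 in the old libraries. Ift20, which also sits at the Golgi and sorts cilium-bound vesicles, was at 13.3, 13.3 and 11.4 CPM against 9.65, 10.4 and 9.83 CPM (-0.35 ± 0.12, adjusted p = 0.0331, edgeR). Ift80 was at 27.4, 28.8 and 28.8 CPM against 23.2, 20.8 and 25.5 CPM (-0.29 ± 0.10, adjusted p = 0.033, edgeR). Neither call was firm: leaving out 1 library raised the adjusted p of Ift20 to at most 0.115 and that of Ift80 to at most 0.11, and Ift80 was at 0.17 on log2(FPKM + 0.1).

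In the core of complex B, 3 of 7 genes were lower, 1 was higher and 3 passed in neither direction, while with library totals alone 3 were higher and 1 lower. Ift27 (gene 67042, chr15:78159460-78174081), a small GTPase that helps the BBSome leave the cilium, was at 9.92, 13.7 and 13.2 CPM in the young and 6.80, 5.47 and 5.19 CPM in the old libraries, with a fold of 0.473 (-1.08 ± 0.17, adjusted p = 0.000523, edgeR). Ift52 was at 30.0, 33.9 and 33.1 CPM against 22.7, 23.2 and 26.9 CPM (-0.42 ± 0.10, adjusted p = 0.00615, edgeR). Ift46 was at 31.7, 31.4 and 36.7 CPM against 27.6, 25.6 and 21.7 CPM (-0.41 ± 0.11, adjusted p = 0.0111, edgeR). Ift81 moved the other way. It binds tubulin together with Ift74 and was at 9.05, 9.19 and 8.28 CPM in the young and 14.3, 14.5 and 11.6 CPM in the old libraries (0.61 ± 0.13, adjusted p = 0.00322, edgeR). Its partner Ift74 was at 0.26 ± 0.14 (adjusted p = 0.155, edgeR). The ratio of Ift81 to Ift74 FPKM was 1.42, 1.24 and 1.19 in the young and 1.85, 1.86 and 1.52 in the old libraries. The ratio of Ift81 to Ift27 FPKM was 0.269, 0.185 and 0.178 against 0.668, 0.745 and 0.668. These subunits of the same complex thus changed in opposite directions, and their levels were closer to each other in every old library than in any young one. Ift88, the core subunit lost in the Oak Ridge polycystic kidney mouse, was at 13.2, 12.4 and 12.4 CPM against 15.4, 12.3 and 16.1 CPM with overlapping groups (0.20 ± 0.13, adjusted p = 0.204, edgeR). Ift22 was at 15.4, 17.5 and 18.2 CPM against 13.2, 13.4 and 15.3 CPM and fell just short of the threshold (-0.29 ± 0.12, adjusted p = 0.0603, edgeR).

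In complex A, 1 of 3 genes was lower by counts, and its direction turned with the unit. Ift122 (gene 81896, chr6:115853379-115926699) was at 32.0, 39.6 and 39.5 CPM in the young and 24.9, 23.5 and 26.8 CPM in the old libraries (-0.56 ± 0.11, adjusted p = 0.00166, edgeR). Its deposited FPKM was instead higher in every old library, at 11.24, 9.88 and 10.41 in the young and 17.61, 11.47 and 15.90 in the old. The log2(FPKM + 1) difference was 0.46 (adjusted p = 0.0289, limma). The transcript length implied by counts, FPKM and library total was 2740, 3617 and 3271 bases in the young and 1535, 2278 and 1855 bases in the old libraries. The log2 ratio of that length, old over young, was -0.75, outside the 5 to 95% range of -0.20 to 0.20 over 15104 genes. Of 58 members with such a value, 3 lay outside that range, the others being Bbs12 at 0.55 and Cep70 at 0.23. The deposited length normalisation of Ift122 thus differed between the groups. This gene is among the lower Ift calls by counts alone, and no direction across units is given for it. Ift140, which overlaps Tmem204 on the other strand, was at 27.1, 31.9 and 27.6 CPM against 26.8, 27.9 and 26.6 CPM with overlapping groups (-0.09 ± 0.10, adjusted p = 0.436, edgeR). Ift43 was at 0.16 ± 0.20.

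**Figure D4:**
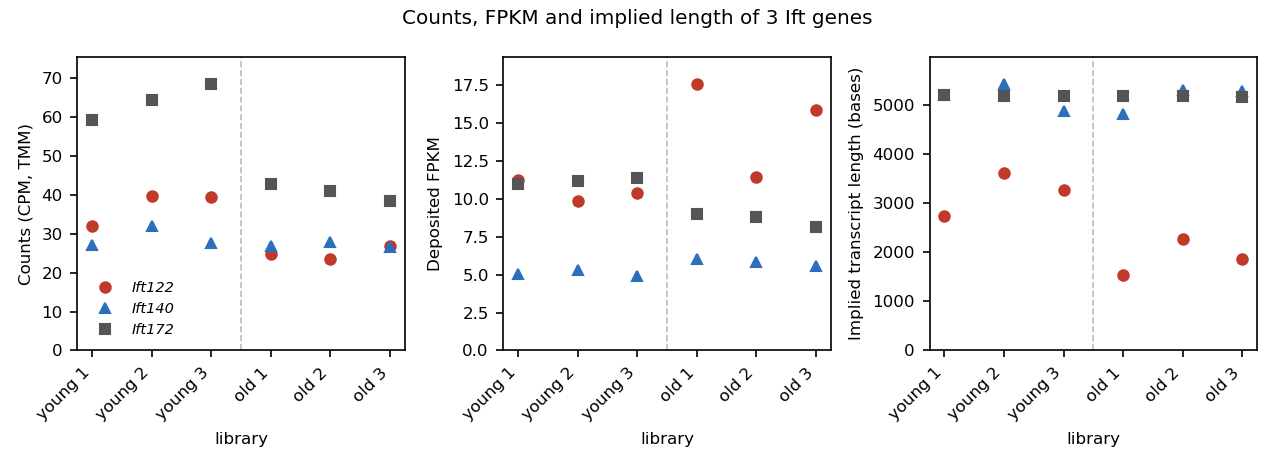
Counts (CPM, TMM-scaled), deposited FPKM and implied transcript length in bases for Ift122, Ift140 and Ift172 in each of the 6 libraries, with a dashed line between young and old. Ift122 lies at 32.0 to 39.6 CPM in the young and 23.5 to 26.8 CPM in the old libraries, while its FPKM is higher and its implied length shorter in the old ones; Ift172 is lower in the old libraries by counts.

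Of the BBSome, 1 of 6 genes was lower and 0 were higher, beside 27.3% and 26.9% of all genes. Bbs9, a subunit of the BBSome core, was at 28.7, 26.7 and 30.2 CPM in the young and 24.0, 24.8 and 18.9 CPM in the old libraries (-0.34 ± 0.12, adjusted p = 0.0332, edgeR). Its call was lost without old 3 (adjusted p = 0.0974) or young 3 (0.0738), and it held under 1 of the 6 other scalings. The other subunits passed in neither direction. Bbs1, which binds the small GTPase Arl6, was at 27.5, 30.0 and 28.5 CPM against 26.3, 26 and 27.0 CPM, with the old libraries just below the young (-0.12 ± 0.09, adjusted p = 0.265, edgeR). Bbs2 was at 17.3, 20.2 and 21.2 CPM against 19.2, 18.9 and 15.4 CPM, with overlapping groups (-0.14 ± 0.12, adjusted p = 0.376, edgeR). Bbs4, which links the BBSome to satellites, was at 21.9, 21.6 and 20.7 CPM against 19.6, 18.3 and 21.6 CPM, again overlapping (-0.11 ± 0.10, adjusted p = 0.369, edgeR). Bbs5 was at 2.44, 2.87 and 2.56 CPM in the young and 2.23, 1.71 and 1.59 CPM in the old libraries, apart but short of the threshold (-0.51 ± 0.23, adjusted p = 0.0879, edgeR). The chaperonin-like genes Bbs10 and Bbs12, which fold the BBSome's subunits, passed in neither direction. Bbs10 was at 3.81, 4.36 and 3.26 CPM against 3.26, 4.50 and 3.29 CPM (-0.05 ± 0.21, adjusted p = 0.855, edgeR). Bbs12 was at 0.16 ± 0.15 (adjusted p = 0.406, edgeR) and was the Bbs gene called higher with library totals alone (0.43, adjusted p = 0.0346), but it was at -0.06 on log2(FPKM + 1). Its implied transcript length was 3486 to 3694 bases in the young and 5019 to 5519 bases in the old libraries.

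Cilium and centrosome genes with other symbols were examined from lists by role. For comparison, 26.9% of all genes tested were called higher and 27.3% lower under TMM, and 41% and 14.5% with library totals alone. Protein-coding genes stood at 19.7% higher and 34.7% lower under TMM. Train subunits not named Ift, together with the train-binding adaptor Tulp3 and the small GTPase Rabl2, had 1 of 11 tested genes higher and 4 lower, with a median log2 fold change of -0.20, but 3 higher and 1 lower with library totals alone. Wdr35 (-0.76 ± 0.13, adjusted p = 0.000702, edgeR) and Wdr19 (-0.47 ± 0.09, adjusted p = 0.00182, edgeR), both subunits of complex A, fell in these libraries, as did Ttc26 of complex B (-0.47 ± 0.14, adjusted p = 0.0152, edgeR, and 0.0705 without young 2). Tulp3 and Traf3ip1, named after their values were seen, were the other calls at -0.20 and 0.34, and both calls were lost when any of 4 libraries was left out. The kinesin-2 and dynein-2 motors had 1 of 12 higher and 5 lower (median -0.31), but 5 higher and 0 lower with library totals alone. Not all 5 lower calls were firm. That of the light chain gene Dynlrb1, named after its values were seen, rose to an adjusted p of 0.132 (edgeR) without old 2. Within dynein-2, the intermediate chain genes Wdr34 (-0.63 ± 0.16, adjusted p = 0.00626, edgeR) and Wdr60 (0.49 ± 0.11, adjusted p = 0.00441, edgeR) moved in opposite directions. BBSome partners with other symbols had 0 of 8 higher and 3 lower (median -0.24), but 1 higher and 2 lower with library totals alone (median 0.03). The 3 lower after TMM were Trim32 (-0.99 ± 0.09, adjusted p = 3.05e-05, edgeR), Rab8a, the GTPase of cilium membrane traffic (-0.71 ± 0.13, adjusted p = 0.00104, edgeR), and Mkks (-0.48, adjusted p = 0.0248, edgeR, lost without old 2 or old 3).

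The transition zone, the gate between cilium and cell body, had 8 of 25 genes (32%) higher and 5 (20%) lower (median -0.01), beside 26.9% and 27.3% of all genes. With library totals alone 10 (40%) were higher and 1 (4%) lower, beside 41% and 14.5% of all genes, so the higher share was near that of all genes. Nphp4 was higher (0.91 ± 0.14, adjusted p = 0.000374, edgeR), and the membrane proteins Tmem67 (-0.68 ± 0.14, adjusted p = 0.00222, edgeR) and Tmem216 (-0.63 ± 0.18, adjusted p = 0.0127, edgeR) were lower. Centriole and centrosome genes not named Cep had 16 of 42 (38.1%) higher and 9 (21.4%) lower (median 0.06), and 20 (47.6%) higher and 0 lower with library totals alone. Nin, which anchors microtubules at the subdistal appendages, was at 92.6, 74.3 and 67.9 CPM in the young and 153, 146 and 162 CPM in the old libraries (0.97 ± 0.11, adjusted p = 9.5e-05, edgeR). Ofd1, a satellite and centriole protein, was higher (0.80 ± 0.17, adjusted p = 0.00256, edgeR). Plk4, the kinase of centriole duplication, was lower (-0.86 ± 0.25, adjusted p = 0.0144, edgeR, and 0.0694 without young 2).

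Of 8 testable regulators of ciliogenesis, 3 were higher and 2 lower (median 0.10), beside 26.9% and 27.3% of all genes. Rfx3, one of the factors that bind the X-box, was at 47.6, 39.0 and 41.4 CPM in the young and 74.0, 57.9 and 67.6 CPM in the old libraries (0.64 ± 0.11, adjusted p = 0.000931, edgeR). Foxj1, the regulator of motile cilia, was at 8.04, 6.29 and 6.24 CPM against 12.4, 9.83 and 12.3 CPM (0.74 ± 0.16, adjusted p = 0.00267, edgeR). Rfx7 was the other higher call (0.44 ± 0.08). Rfx4 was scarce and lower, at 1.23, 0.843 and 0.579 CPM against 0.172, 0.235 and 0.242 CPM (-2.02 ± 0.44, adjusted p = 0.00333, edgeR), and Myb was lower in a call that 4 of the 6 leave-one-out fits lost. Hedgehog genes, whose signal is received at the primary cilium, had 5 of 16 (31.2%) higher and 5 lower (median 0.08), near the shares of all genes. With library totals alone 9 (56.2%) were higher and 2 (12.5%) lower, beside 41% and 14.5% of all genes. Hhip, which binds and restrains Hedgehog ligands, was at 32.0, 29.1 and 31.6 CPM in the young and 14.2, 13.2 and 13.6 CPM in the old libraries (-1.18 ± 0.10, adjusted p = 1.99e-05, edgeR). The ligand gene Ihh was called higher (1.95 ± 0.57, adjusted p = 0.0158, edgeR), and the call was lost without old 1 (adjusted p = 0.0506), old 2 (0.0615) or young 2 (0.057).

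Markers of 8 cell types or states were also compared, and those of some of them differed between the groups. Their part in the members' results was not tested. Of 14 hair cell markers 12 were lower and 2 higher, with a summed level of 122 to 150 FPKM in the young and 82.7 to 94.7 FPKM in the old libraries. Of 12 neuron markers 11 were higher and 0 lower, at 570 to 891 FPKM in the young and 1132 to 1279 FPKM in the old libraries. Of 18 tested markers of dividing cells, in which centrioles duplicate, 17 were lower and 0 higher, at 21.4 to 47.3 FPKM against 7.32 to 11.4 FPKM. The 10 erythroid markers were all lower, at 5331 to 11753 FPKM against 1318 to 4012 FPKM. The 10 neutrophil markers were also all lower, at 1428 to 1983 FPKM against 106 to 261 FPKM. Of 10 osteoblast markers 6 were lower and 0 higher, at 107 to 229 FPKM against 64.0 to 69.4 FPKM. Markers of multiciliated cells had 3 of 18 higher and 2 lower and overlapped in summed level, at 42.3 to 43.8 FPKM in the young and 36.1 to 46.9 FPKM in the old libraries. Supporting cell markers had 3 of 12 higher and 3 lower, at 1105 to 1272 FPKM against 1160 to 1226 FPKM. None of the markers in these lists was at 0 in all libraries.

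Longer members tended to have higher signed log2 fold changes (old minus young). Across the 60 protein-coding members, which are not independent replicates and share the same 6 libraries, the log2 fold change had a Spearman correlation of 0.45 with genomic span and 0.38 with the implied transcript length. Over all protein-coding genes tested the same correlations were 0.23 (n = 15312) and 0.25 (n = 15307). Median spans were 42724 bases for Cep, 69577 for Ift and 26071 for Bbs genes. Median implied transcript lengths were not taken by prefix, and the order of the prefixes by span need not be that by transcript length. The part of length in the differences between prefixes was not tested.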

How the data were processed

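RNA of 6 libraries was analysed. The deposited table holds estimated counts per gene that the authors did not scale (20.15% of gene values are not whole). The authors also deposited FPKM values for the same genes. The genome was GRCm38.p6, per the submitters' processing notes. The sources used here do not name the aligner, quantifier, annotation or strandedness. Gene identifiers were matched to RefSeq, and 8228 circular RNA entries were left out.

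Estimated counts were rounded and fitted with edgeR 4.0.16 in R 4.3.3 (filterByExpr by group, TMM, quasi-likelihood F test, Benjamini-Hochberg adjustment over 20157 genes, with 0.05 as threshold). Fold changes are given as log2 of old over young, and a value after ± is an SE unless SD is stated. CPM are TMM-scaled. Implied transcript length is the count over FPKM and library total. Sums of FPKM and ratios were taken within libraries. Alternatives were other scalings, no filter, a minimum mean count of 50, an adjusted p of 0.01, DESeq2 1.42.0, limma-voom and limma 3.58.1 on log2(FPKM + 1) and log2(FPKM + 0.1), a replicate block, and leaving out each library. The edgeR fit was tested on simulated data. Like-numbered libraries were checked for pairing. Plots used Python 3.11.15 and matplotlib 3.10.9.

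Values in every library are given for up to 5 called members per prefix and direction with the largest changes (where the higher group averaged 1 CPM or more), the 3 highest by FPKM and 16 members chosen for their roles, plus others named after their values were seen; of each other list, up to 3 called genes with the largest changes are named. A gene that this rule would name is not reported here. The members, lists and this rule were chosen with earlier results of these data known. The common biological coefficient of variation was 0.134.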

Additional observations from a re-analysis of the deposited data

How the results depend on the processing

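DESeq2 and its size factors gave the main counts of 20 members higher and 11 lower, limma-voom gave 20 and 12, and no filter gave 19 and 11. Higher calls rose to 35 with library totals alone and to 32 with log2(FPKM + 0.1), from 19 to 30 among Cep genes with library totals, from 1 to 3 (TMM on protein-coding genes), 4 (library totals), 5 (log2(FPKM + 0.1)) and 4 (log2(FPKM + 1)) among Ift genes, and from 0 to 1 among Bbs genes with library totals. Lower calls went from 11 to 6 with TMM on protein-coding genes, 5 at an adjusted p of 0.01, 4 with library totals, 3 with either FPKM scale, 6 at a mean count of at least 50 and 7 with upper-quartile scaling. Lower Cep calls went from 3 to 1 at an adjusted p of 0.01, with library totals, with either FPKM scale and at the mean count of 50. Lower Ift calls went from 7 to 4 with TMM on protein-coding genes and at 0.01, to 3 with library totals and to 2 with either FPKM scale. The 1 lower Bbs call became 0 under each of these, with upper-quartile scaling and with the replicate block. On log2(FPKM + 0.1) and log2(FPKM + 1), Ift122 reversed to 0.49 and 0.46 and Ift80 to 0.17 and 0.16. The cause of these reversals was not tested.

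Leaving out each library gave 19 to 21 members higher and 7 to 11 lower: 18 to 20 and 1 to 3 among Cep genes, 1 and 5 to 7 among Ift genes, and 0 to 2 lower among Bbs genes. The 7 lower calls, and the 1 among Cep genes, came without young 2, the 0 Bbs calls without old 3 or young 3, and the 2 without old 1. It ended 6 calls in at least 1 fit (Bbs9, Cep72, Cep76, Cep89, Ift20 and Ift80). Like-numbered libraries did not deviate together (correlations of -0.082, 0.026 and -0.057), so the numbers were not taken as pairs; a replicate block gave 20 members higher and 8 lower, with 19 and 3 Cep, 1 and 5 Ift and 0 and 0 Bbs genes. Cep55 and Cep72 have the fewest counts of the protein-coding members, and how far depth limits them was not tested.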
